A study of Homo sapiens with 8 samples.

Results

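The microRNA (miRNA) response to gefitinib alone was examined in PC-3, an established human cell line derived from a prostate cancer. The arrays were chosen by their treatment label: 2 arrays of cells given 60 µM gefitinib and 2 arrays of cells given the solvent DMSO, or 4 of the 8 arrays of the series. All cells were harvested 24 h after the addition, and gefitinib was dissolved in DMSO, so both groups received the solvent. The remaining 4 arrays, 2 of cells given 60 µM luteolin and 2 of cells given luteolin together with gefitinib at 60 µM each, entered the fit so that the spread between replicates could be estimated, and the luteolin arrays served as a second reference. Gefitinib inhibits the kinase of the epidermal growth factor receptor, and luteolin is a plant flavonoid. The labels call the replicates biological, and PC-3 is 1 line studied at 1 dose and 1 time.

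A miRNA is cut from a hairpin transcript by Drosha and then by Dicer. Of the duplex that results, one strand (the guide arm) is usually kept in an Argonaute protein and the other (the passenger arm) is mostly discarded, so that the arms of a hairpin can differ greatly in level. Bases 2 to 8 of the mature strand form the seed, which directs the pairing with target mRNAs, and miRNAs with a common seed are grouped as a family. Many miRNA hairpins lie in clusters that are transcribed together.

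The sequences below belong to the miRNAs on which the results turn. They are mature strands from RefSeq on GRCh38.p14, written 5′ to 3′ with the seed in capitals. The strands in the first set fell after gefitinib, and the guide arm of the same hairpin or a family member is shown beside them for comparison.
miR-503-5p: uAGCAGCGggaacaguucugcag
miR-16-5p: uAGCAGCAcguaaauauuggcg
miR-424-5p: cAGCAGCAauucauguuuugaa
miR-15b-3p: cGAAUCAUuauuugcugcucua
miR-15b-5p: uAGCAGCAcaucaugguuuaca
let-7a-3p: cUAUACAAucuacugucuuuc
let-7e-3p: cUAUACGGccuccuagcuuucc
let-7a-5p: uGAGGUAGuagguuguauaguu
miR-100-3p: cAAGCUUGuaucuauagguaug
miR-99b-3p: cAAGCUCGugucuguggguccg
miR-222-5p: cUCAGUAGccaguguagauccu
miR-1260a: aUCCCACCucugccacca
miR-1260b: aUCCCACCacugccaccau
The strands in the next set rose after gefitinib, and several of them share a seed or an end.
miR-630: aGUAUUCUguaccagggaaggu
miR-5703: aGGAGAAGucgggaaggu
miR-4516: gGGAGAAGggucggggc
miR-642a-3p: aGACACAUuuggagagggaacc
miR-642b-3p: aGACACAUuuggagagggaccc
miR-188-5p: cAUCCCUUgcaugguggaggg
miR-500a-5p: uAAUCCUUgcuaccugggugaga
miR-4746-3p: aGCGGUGCuccugcgggccga
miR-4443: uUGGAGGCguggguuuu
miR-629-3p: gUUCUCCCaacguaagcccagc
miR-769-3p: cUGGGAUCuccggggucuugguu
miR-3158-5p: cCUGCAGAgaggaagcccuuc
miR-4689: uUGAGGAGacauggugggggcc

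The signal of a miRNA was the total over its probes given by the scanner software, scaled so that the 75th percentile of each array, taken over the 365 miRNAs detected on all 8 arrays, was equal. It is given in linear scaled units and fold changes on the log2 scale, with values below a floor of 0.609 raised to it. The arrays carried 1887 human miRNAs, of which the software detected 475 and 430 in DMSO-treated and 481 and 468 in gefitinib-treated cells. The replicates correlated with r = 0.997 for gefitinib and 0.984 for DMSO across those 365 miRNAs, and 2 and 21 miRNAs, respectively, differed over 2-fold between replicates. Of the epithelial markers, miR-200a-3p, miR-200b-3p and miR-429 were detected on all 4 arrays, miR-205-5p was detected on 3 of them, and miR-200c-3p and miR-141-3p were not detected. Of 17 markers of other cell types, 16 were not detected on any of the 4 arrays, the exception being miR-9-5p. Labelling used equal amounts of total RNA, so a changed number of copies per cell and a changed make-up of the RNA cannot be told apart.

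Gefitinib changed 58 of the 480 miRNAs tested, or 12.1%, at an adjusted p under 0.05 in limma (Benjamini-Hochberg over the 480). It raised 36 (7.5% of those tested) and lowered 22 (4.58%). Detection was complete on the 4 arrays for 38 of the 58 and incomplete for 20, and 14 of the 36 rises were of miRNAs that no DMSO array detected, so that their DMSO group stood at the floor. Of these 14, 7 passed the filter through the gefitinib arrays alone, where they had to be high. The change exceeded 2-fold for 40 of the 58, and 114 miRNAs had an unadjusted p under 0.05. The median log2 change over all tested miRNAs was -0.10, and this median and the split of the calls depended on the scaling. Without scaling, 35 were higher and 7 lower with a median of 0.26, and with scaling to the 19 human small-RNA control probes 60 were higher and 10 lower with a median of 0.28. The 75th percentile before scaling was 90.9 and 92.7 on the gefitinib arrays against 73.5 and 68.9 on the DMSO arrays. None of the 58 calls changed sign under any of the 25 other settings in which they were recomputed. Leaving out 1 array left 15 to 70 calls, with 18 without either DMSO array, 15 when gefitinib replicate 1 was missing, 17 when its replicate 2 was, and 29 without either array of the combined treatment.

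**Figure D1:**
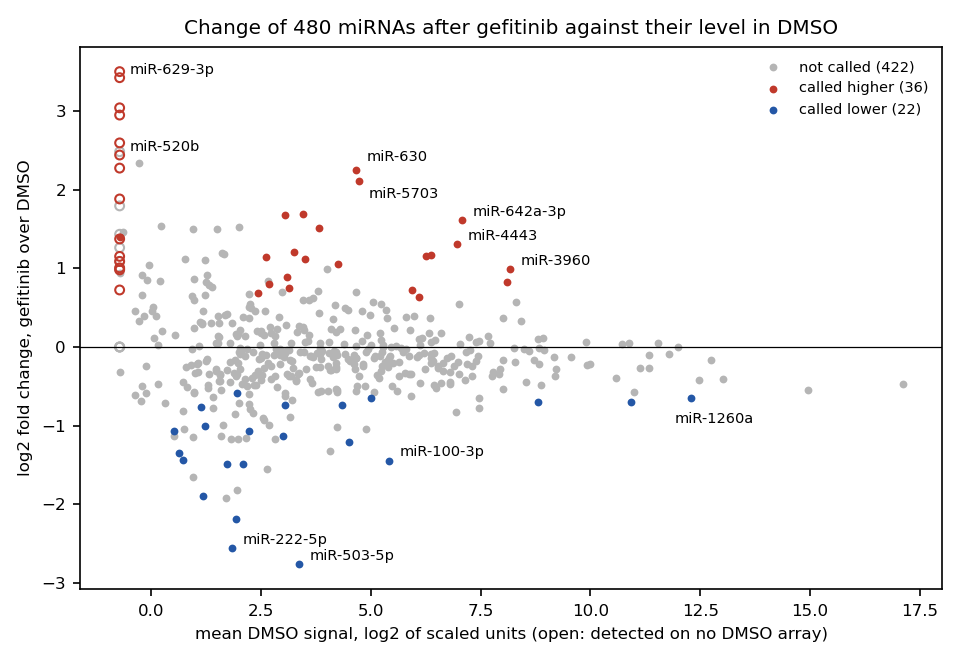
Log2 fold change of gefitinib over DMSO (vertical axis) against the mean DMSO signal (horizontal axis, log2 of scaled units) for 480 miRNAs, with the 36 called higher in red, the 22 called lower in blue and 422 not called in grey. Open circles were detected on no DMSO array, and the points labelled miR-503-5p and miR-222-5p are the lowest.

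The largest fall among miRNAs detected on all 4 arrays was that of miR-503-5p, listed here with the miR-15/16 family, which restrains cell cycle genes. Its signal was 9.79 and 10.8 in DMSO-treated cells and 1.52 and 1.51 in gefitinib-treated cells. The groups were far apart relative to the spread of either, with a 6.79-fold fall (log2 fold change -2.76, SE 0.17, limma adjusted p = 0.00147). The total leaves out probes that the software did not detect, and the sum over all probes of miR-503-5p gave a 4.28-fold fall (adjusted p = 0.00220). This call held under each of the 25 other settings, as did that of miR-4746-3p. The hairpin lies on the minus strand at chrX:134546328-134546398 within the span of MIR503HG, next to that of miR-424 at chrX:134546614-134546711.

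The cluster of miR-424, miR-503, miR-542 and miR-450 had 6 tested members, of which miR-503-5p and miR-542-3p were lower and none higher, beside 4.58% lower over all tested miRNAs, with a median log2 change of -0.52 and negative changes in 5 of the 6. Under each of the other 4 scalings miR-503-5p alone was lower. The signal of miR-542-3p went from 3.72 and 4.04 in DMSO to 2.56 and 2.63 with gefitinib, a 1.49-fold fall at the edge of the threshold (adjusted p = 0.0495). The other arm, miR-542-5p, had a log2 change of 0.60 (adjusted p = 0.711). The signals of miR-424-3p, 12.5 and 5.38 against 3.75 and 5.24, were not called lower (log2 -0.89, adjusted p = 0.546), nor were those of miR-450a-5p (log2 -0.37, adjusted p = 0.304). The signal of miR-424-5p, with the seed AGCAGCA against AGCAGCG in miR-503-5p, was 94.7 and 129 against 82.0 and 77.6, a log2 change of -0.47 that did not pass the test (adjusted p = 0.435). Of the 7 tested miRNAs listed as the miR-15/16 family, miR-503-5p alone was called, and the median of the list was -0.13. The 6 that share the seed AGCAGCA had no call and a median of -0.09.

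Passenger arms made up a large share of the falls. A list of 83 passenger arms of abundant hairpins held 79 miRNAs of the array and 32 tested ones, of which 10 were lower and none higher, with a median log2 change of -0.53 beside -0.10 over all miRNAs tested. Among the 480 tested, 4.58% were lower. The 10 had a median signal of 3.69 in DMSO-treated cells, against 10.0 over all tested miRNAs, and only 22 of the 32 tested arms were detected on all 4 arrays. The number of lower arms was 5 without scaling, 7 with the control probes, 10 with the sum of all probes, and 4 to 10 when 1 array was left out (5 when replicate 1 of DMSO or of gefitinib was missing, 4 when replicate 2 of either was, and 6 without either array of the combined treatment).

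The arms that fell came from hairpins whose guide strand is well known. The passenger strand of miR-100, miR-100-3p, was the most abundant of them, with 37.8 and 48.2 in DMSO-treated and 19.7 and 12.5 in gefitinib-treated cells (log2 -1.44, SE 0.31, adjusted p = 0.0406). For miR-29b-1-5p the signals were 19.9 and 25.8 against 10.68 and 8.94 (log2 -1.21, adjusted p = 0.0337). In both cases every gefitinib array lay below every DMSO array, as in all 22 lowered miRNAs.
The signal of let-7a-3p was 4.26 and 4.28 in DMSO and 1.62 and 1.43 after gefitinib, a 2.81-fold fall (adjusted p = 0.00614). Its relative let-7e-3p, with 2.08 and 2.46 in DMSO, was not detected on either gefitinib array. Both come from the let-7 hairpins, whose guide arms are regulators of RAS and MYC. Next, miR-15b-3p had 3.03 and 3.62 against 1.33 and 1.04 (log2 -1.49, adjusted p = 0.0115), miR-16-2-3p had 7.65 and 8.92 against 4.88 and 5.03 (log2 -0.74, adjusted p = 0.0350), and miR-99b-3p had 1.26 and 1.59 against 0.636 and 0.720 (log2 -1.07, adjusted p = 0.0246). With all probes summed, the log2 change of miR-99b-3p was -0.56 and was not called (adjusted p = 0.240). The hairpins of miR-15b (chr3:160404588-160404685) and miR-16-2 (chr3:160404745-160404825) lie side by side on the plus strand within the span of SMC4, and those of miR-99b (chr19:51692612-51692681) and let-7e (chr19:51692786-51692864) within that of SPACA6. The miR-100 hairpin lies on the minus strand at chr11:122152229-122152308 within MIR100HG.

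Other passenger arms fell to the limit of detection. The signal of miR-222-5p was 3.62 and 3.53 in DMSO and 0.563 on gefitinib array 1, and array 2 did not detect it. Both gefitinib values lie under the floor, which sets the log2 change of -2.55 on the totals (adjusted p = 0.00213). The probe sums were 4.02 and 3.98 against 0.936 and 0.263, and with them the fall of miR-222-5p was 5.29-fold (adjusted p = 0.00721). For miR-181a-3p the signals were 3.65 and 3.97 against 1.14 and no detection, with a log2 change of -2.19 (adjusted p = 0.00925). Its probe sums were 3.65 and 3.97 against 2.03 and 1.58, a smaller log2 change of -1.09 that was not called (adjusted p = 0.0748). The fall of miR-19b-1-5p was from 1.504 and 1.59 to 0.567 and no detection. Both gefitinib values of miR-19b-1-5p lie under the floor, so the log2 change of -1.35 on the totals (adjusted p = 0.00361) has no spread in that group. Its probe sums were 1.54 and 1.86 against 0.641 and 0.383, a log2 change of -1.43 (adjusted p = 0.00382).

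Among miRNAs detected on all 4 arrays, the remaining falls of the 12 largest came from scattered hairpins. One of these, miR-4451, is described with the comparison against luteolin. The signal of miR-149-5p was 6.76 and 9.17 against 3.19 and 4.03 (log2 -1.14, adjusted p = 0.0469), and that of miR-4482-3p was 5.38 and 4.07 against 2.13 and 2.36 (log2 -1.06, adjusted p = 0.0469). For miR-338-5p it was 2.37 and 2.30 against 1.16 and 1.16, and for miR-3907 19.9 and 20.6 against 11.1 and 13.3 (adjusted p = 0.0165 and 0.0411). With all probes summed, the falls of miR-149-5p and miR-338-5p were not called (log2 -0.84 and -0.90, adjusted p = 0.0866 and 0.0608). No gefitinib array reached the lower of the DMSO arrays in any of them, as the choice of these miRNAs requires.

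**Figure D2:**
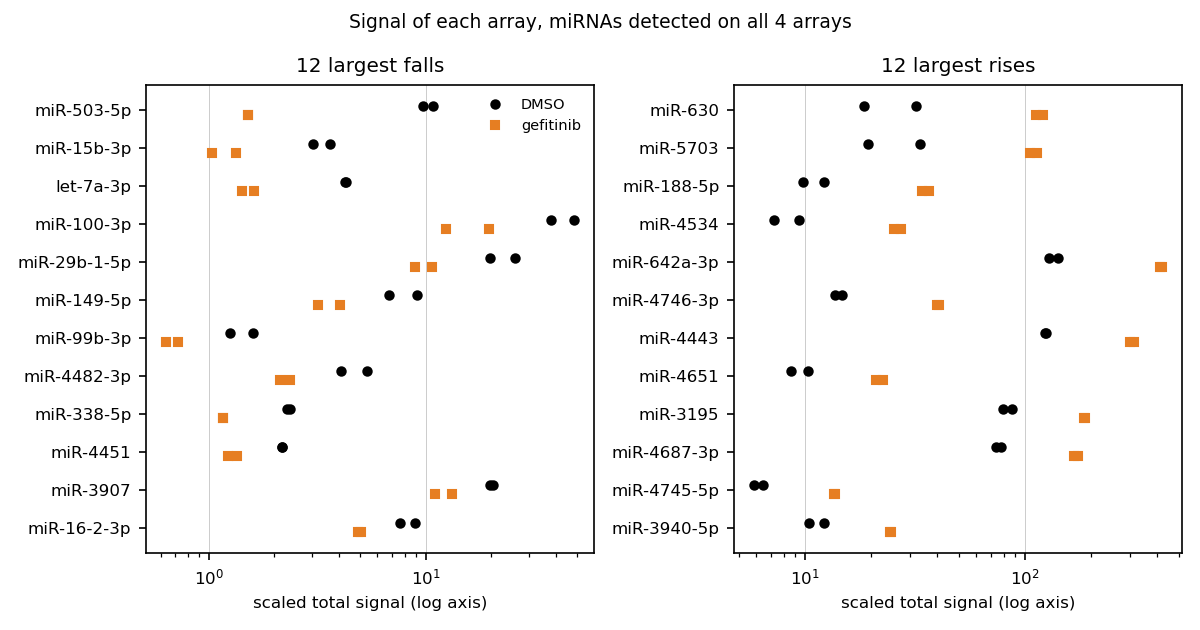
Scaled total signal of each array (horizontal log axis) for the 12 largest falls (left) and the 12 largest rises (right) among called miRNAs detected on all 4 arrays, with DMSO as black circles and gefitinib as orange squares. In every row the gefitinib arrays lie on 1 side of both DMSO arrays, as the choice of these miRNAs requires, and the gap is widest for miR-503-5p.

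To examine whether the arms of a hairpin moved apart, the log2 ratio of the 5p to the 3p signal was compared within each array, which removes the scaling. Both arms were detected on all 4 arrays for 43 hairpins, and 1 of them, or 2.33%, passed the test. This was miR-15b, whose log2 ratio of 5p to 3p went from 6.67 and 7.02 in DMSO to 8.12 and 8.45 with gefitinib (change 1.44, SE 0.24, limma adjusted p = 0.0324). No hairpin was called when any 1 of the 4 DMSO and gefitinib arrays was left out, 5 were called with the 4 arrays fitted alone, 4 without either luteolin array and 2 without either array of the combined treatment. The guide arm miR-15b-5p had 309 and 468 against 371 and 362 (log2 -0.05). A further 7 hairpins had an unadjusted p under 0.05. They included miR-99b, miR-29b-1, let-7a and miR-100, with adjusted p-values of 0.0870, 0.0870, 0.0958 and 0.102. Both arms had a positive change in 8 hairpins, both a negative one in 23, and the arms had opposite signs in 12.

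The guide arms of the hairpins with a fallen passenger arm stayed within 1.31-fold of DMSO. The signal of let-7a-5p was 2296 and 3660 against 3062 and 2926 (log2 0.05), that of miR-100-5p 2983 and 4054 against 3176 and 3373 (log2 -0.09), and that of miR-16-5p 613 and 887 against 666 and 684 (log2 -0.13). For these 3 the DMSO replicates lay further apart than the group means. The corresponding log2 changes of miR-99b-5p and miR-29b-3p were -0.24 and -0.39, and none of these guide arms was called. Over the 22 hairpins with a listed passenger arm in this test, the change of the passenger arm was below that of the guide in 15 and above it in 7, with a median difference of -0.22. The passenger arms of miR-22, miR-29c, miR-200b, let-7i, miR-182 and miR-183 had positive changes, none of them called.

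**Figure D3:**
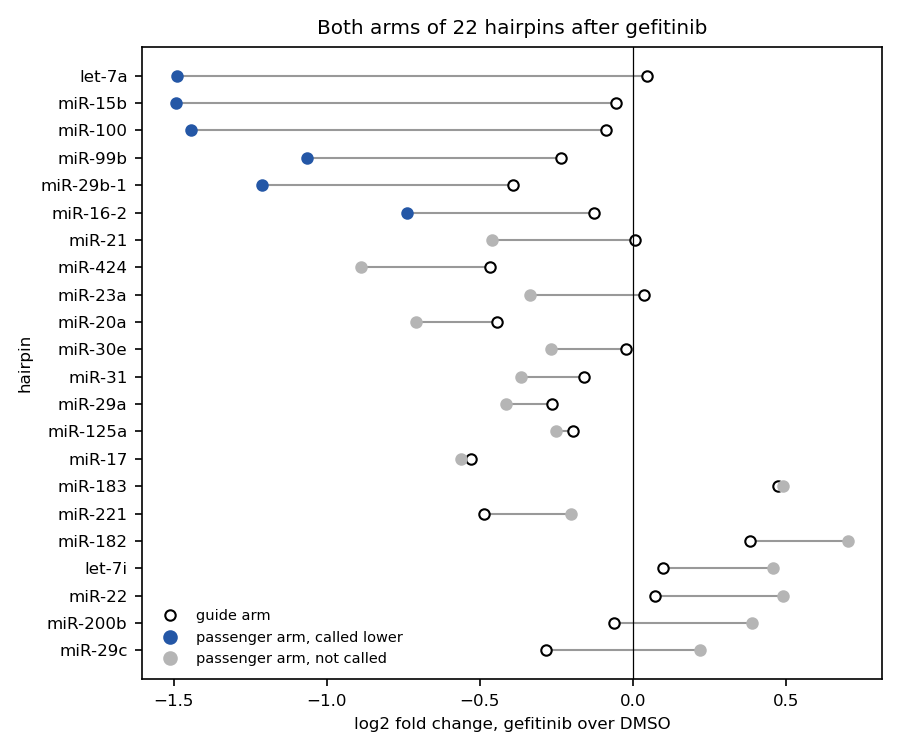
Log2 fold change of the guide arm (open circles) and the passenger arm (filled circles, blue where called lower) of 22 hairpins, joined by a line and ordered by the difference. The 6 hairpins at the top have a called passenger arm and a guide arm between -0.39 and 0.05, and the arms of miR-183 nearly coincide.

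Of 25 seed families with 90 listed members, 76 members were tested and 1 was called, miR-503-5p, beside 12.1% over all tested miRNAs, while 75 changed less than 2-fold. Family medians lay between -0.56 for miR-18 and 0.10 for miR-320. The 9 tested members of the let-7 family had log2 changes between -0.02 and 0.12, and those of the miR-30 family between -0.15 and 0.14. The largest absolute change in a family without a call was that of miR-148a-3p, at 0.76 (adjusted p = 0.685), with overlapping arrays of 3.45 and 1.80 against 5.48 and 3.27. A p above the threshold with 2 arrays a group does not show that a family stayed the same.

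The growth-associated miR-17-92 cluster had 9 tested members, all with negative changes between -1.35 and -0.34 and a median of -0.53, and miR-19b-1-5p, at the floor after gefitinib, alone was called, beside 4.58% lower over all tested miRNAs. Its guide arm miR-17-5p had 220.9 and 293 in DMSO and 172 and 180.96 with gefitinib (log2 -0.53, adjusted p = 0.227). With quantile normalization no member of the cluster was called, although all 9 changes were negative. The median of the cluster was -0.16 without scaling, when 8 of 9 were negative, and -0.14 with the control probes, when 6 were. Relative to the median of all miRNAs the shift was -0.42 under both. These scalings move all changes above the floor alike, so this equality was fixed in advance. The family of miR-17, miR-20, miR-93 and miR-106 had 5 tested members with a median of -0.44, which was -0.08 without scaling, with 3 of 5 negative.

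The cluster of miR-183, miR-96 and miR-182, with known roles in sensory cells and carcinoma, went the other way in all 5 tested members (median 0.49, from 0.38 to 0.70), although none was called. The largest change, in miR-182-3p, went from 7.37 and 8.33 to 12.9 and 12.6 (log2 0.70, adjusted p = 0.0892). Against luteolin, miR-182-3p was 1.70 higher on the log2 scale (adjusted p = 0.00970) and miR-183-3p 0.96 higher (adjusted p = 0.0276). All 5 changes against DMSO stayed positive with quantile normalization. The other 3 scalings add the same positive amount to every log2 change above the floor, so they could not turn these negative. Of the 5, 2 were called higher with scaling to the control probes and none under the rest of the scalings.

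The cluster within the span of CLCN5 on the X chromosome held 2 rises. Of the 11 tested members of the miR-188, miR-532, miR-500 and miR-660 cluster, miR-188-5p and miR-500a-5p were higher and none lower, beside 7.5% higher over all tested miRNAs, and the median was 0.18. The number higher was 3 without scaling or with the control probes, and 2 with quantile normalization. It was 1 with the 75th percentile over the miRNAs detected on each array, where miR-188-5p was not called (limma adjusted p = 0.108). The signal of miR-188-5p was 12.2 and 9.80 in DMSO and 36.8 and 34.1 with gefitinib, a 3.24-fold rise (log2 1.69, SE 0.28, adjusted p = 0.0190). For miR-500a-5p it was 6.78 and 6.07 against 12.001 and 10.5, or 1.75-fold (adjusted p = 0.0309). The other arm of the latter hairpin, miR-500a-3p, had 2.59 and 3.15 against 2.93 and 2.99 (log2 0.05). The neighbours miR-532-5p, miR-660-5p and miR-362-5p had log2 changes of 0.20, 0.08 and 0.14. The hairpins of miR-188 (chrX:50003503-50003588) and miR-500a (chrX:50008431-50008514) lie on the plus strand.

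Between DLK1 and DIO3 on chromosome 14, the imprinted 14q32 cluster had 63 miRNAs on the array that matched RefSeq by name and 6 tested ones, of which miR-654-5p was called higher, beside 7.5% over all tested miRNAs. No DMSO array detected it, and it passed the filter through the gefitinib arrays alone. The median was 0.27, with a range from -1.33 to 0.72, so its members did not move together. A further miRNA of this region, miR-487b, carries an array name that did not match and was not counted in the list; its signal was 31.5 and 32.4 against 20.6 and 20.1 (log2 -0.65, adjusted p = 0.0406).

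**Figure D4:**
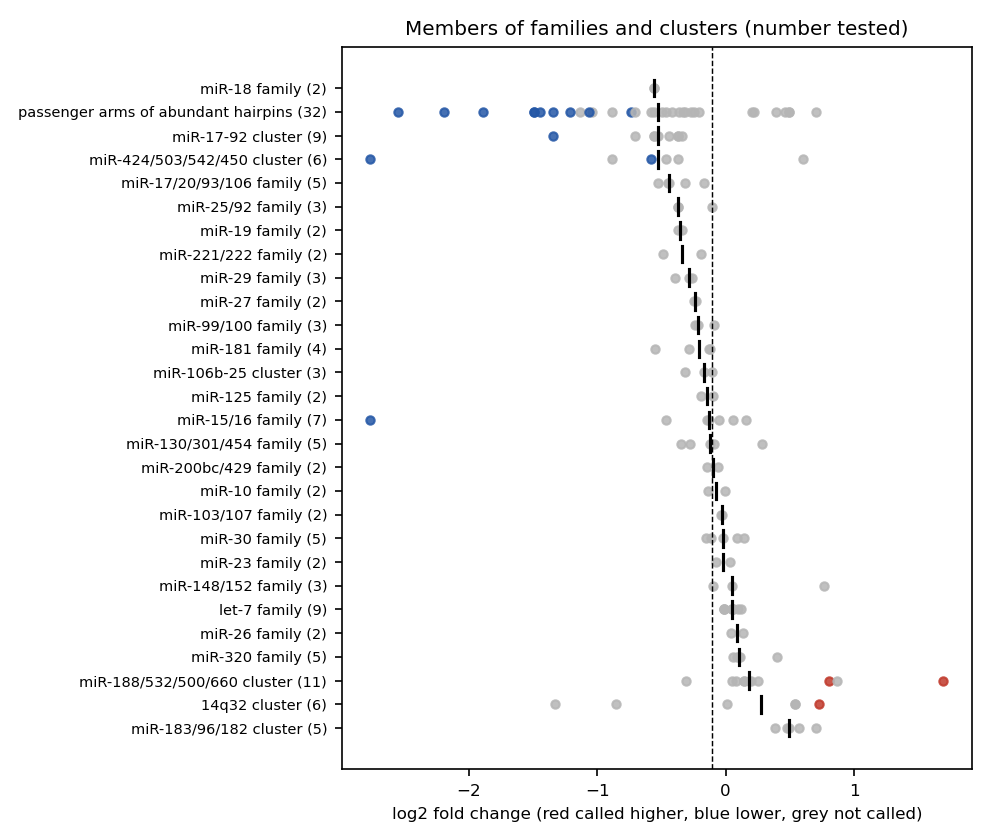
Log2 fold change of gefitinib over DMSO for each tested member of the families, clusters and lists with more than 1 tested member (number tested in parentheses), with black bars at the medians and a dashed line at the median of all tested miRNAs, -0.10. Blue points gather in the passenger arms, and the cluster that begins with miR-188 holds 2 of the 3 red points.

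As a reference, miR-630 went from 32.03 and 18.6 to 112 and 121 (4.77-fold) and miR-5703 from 33.5 and 19.4 to 105 and 114 (4.30-fold). The strand miR-642a-3p, from a hairpin within the span of the incretin receptor gene GIPR (chr19:45674928-45675024), had 142 and 129 against 419 and 411, a 3.06-fold rise (log2 1.62, SE 0.21, adjusted p = 0.00708). The near-identical miR-642b-3p, from the opposite strand of the same locus, had 20.7 and 17.3 against 40.1 and 38.7 (2.09-fold, adjusted p = 0.0331), and cross-hybridization between them was not tested. The strand miR-4443 had 123 and 125.4 against 300 and 314 (2.47-fold, adjusted p = 0.00708).
The strand miR-4746-3p had 14.7 and 13.6 against 39.99 and 40.8 (2.85-fold, SE 0.15 on the log2 scale, adjusted p = 0.00401). Arrays of miR-3195 gave 87.4 and 79.4 against 187.9 and 185 (2.24-fold, adjusted p = 0.00639), and those of miR-4687-3p gave 78.3 and 74.2 against 167 and 175 (2.24-fold, adjusted p = 0.0195). In all of them both gefitinib arrays lay above both DMSO arrays, as in all 36 raised miRNAs. Rises from 2.18-fold to 3.21-fold were seen for miR-4534, miR-4651, miR-4745-5p and miR-3940-5p, all with low signals of 5.90 to 12.2 in DMSO.

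Some of the raised strands resembled each other in sequence. The seed GGAGAAG was shared by miR-5703 and miR-4516, and no other tested miRNA with a RefSeq sequence had it. The signal of miR-4516 was 274 and 275 against 467 and 506 (1.77-fold, adjusted p = 0.0288). The strands miR-630 and miR-5703 differ in seed but end in the same 8 bases, GGGAAGGU, and are the only 2 of the 395 tested miRNAs with a sequence that do. Their signals were also close on every DMSO and gefitinib array. Cross-hybridization between these strands was not tested, so their rises may not be separate. In all, 37 seeds were shared by at least 2 tested miRNAs, and 9 of their 97 members were called, beside 12.1% of all tested miRNAs. The called members belonged to 6 seeds. In 3 of the 6, both members were called and moved the same way, GACACAU and GGAGAAG up and UCCCACC down. In the other 3 a single member was called: miR-4745-5p, miR-3940-5p and miR-4465 had log2 changes of 1.14, 1.12 and 0.72, while the other members of their seeds lay between -0.21 and 0.13.

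The raised strands were also rich in G and C. The median GC content was 63.6% for the 29 raised miRNAs with a sequence, 50% for the 19 lowered ones and 54.5% for all 395. The median G content was 47.1%, 22.7% and 31.8% in the same order. A GC content over 70% was found in 11 of the 29, none of the 19 and 60 of the 395. Of the 29, miR-3158-5p, miR-1469, miR-654-5p, miR-4707-5p, miR-3945 and miR-378a-5p passed the filter through the gefitinib arrays alone, where they had to be high. The 11 include miR-1469 and miR-4707-5p, at 90.9% and 87.0% GC, which were not called with the summed probes. None of the strands that passed in this way is among the miRNAs detected on all 8 arrays. Among the 303 miRNAs detected on all 8 arrays with a sequence, the 51 with over 70% GC had a median log2 change of 0.21, while the medians of the other ranges of GC content lay between -0.25 and -0.12. The difference of the DMSO replicates also ran with GC content, with a median of -0.42 at up to 40% and 0.17 at over 70%. The difference of the gefitinib replicates did not (medians between -0.07 and 0.01). The part of base composition in the rises was not tested.

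Among the abundant miRNAs, 3 short entries whose sequences are known to resemble parts of tRNAs fell. The signal of miR-1260a was 4721 and 5315 in DMSO and 3232 and 3168 with gefitinib (1.57-fold, adjusted p = 0.0489). The related miR-1260b, which shares its seed, had 1852 and 2010 against 1206 and 1175 (1.62-fold, adjusted p = 0.0331). The retired entry miR-1280 had 433 and 460 against 259 and 294 (1.62-fold, adjusted p = 0.0341). These 3, miR-642b-3p, miR-4516, miR-4465, miR-3960 and miR-487b were singled out after their values were seen. Each of the 3 kept a negative change in every setting, but without scaling the log2 changes were -0.28, -0.33 and -0.33 and none was called (adjusted p = 0.476, 0.434 and 0.467). The oncogenic guide strand miR-21-5p, by comparison, had a log2 change of 0.01.

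Detection changed more often toward gefitinib. Of the miRNAs detected on neither DMSO array, 21 were detected on both gefitinib arrays, and 5 were detected on both DMSO arrays and on neither gefitinib array. Between replicates of one group, 50 miRNAs were detected on DMSO array 1 and not on array 2, and 5 the other way. The corresponding counts were 24 and 11 for gefitinib. Without DMSO replicate 1 the count of newly detected miRNAs was 46. With the stricter flag for spots well above background the counts were 18 and 3. The count of miRNAs no longer detected was 19 without DMSO replicate 2 and 16 without gefitinib replicate 1. The unscaled 75th percentile was also higher on the gefitinib arrays, and its part in these counts was not tested.

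Of the 21, limma called 14, but the software sets the total of an undetected miRNA to 0.1 before scaling, which holds its group at the floor without spread. Of the 14, 7 were detected on both arrays of no other group and so passed the filter only where they are high: miR-520b, miR-3158-5p, miR-1469, miR-654-5p, miR-4707-5p, miR-3945 and miR-378a-5p. The probe signals of these miRNAs show how large the changes were. For the placental-cluster strand miR-520b the probe sums were 0.412 and 0.405 in DMSO and 3.57 and 3.07 with gefitinib, at least 4.61-fold higher. Its DMSO group stood at the floor with the totals and with the sums (adjusted p = 0.00140 and 0.00104), and it passed the filter through the gefitinib arrays alone. The probe sums of miR-629-3p were 2.13 and 2.10 against 6.50 and 6.57, a ratio of 3.09, where the fit on totals gave 10.73-fold (adjusted p = 0.00382 with the sums and 0.00614 with the totals). Those of miR-3610 were 2.54 and 1.74 against 7.29 and 6.52, a ratio of 3.28 (adjusted p = 0.00951 with the sums and 0.0288 with the totals).
The ratios of the probe sums of miR-3667-5p and miR-4689 were 2.88 and 2.75, and miR-769-3p, miR-3158-5p and miR-1469 were at least 2.69-fold, 2.20-fold and 1.81-fold higher. Over the 21, the ratio of the gefitinib total to the higher of the lowest detected signal and the probe sum in DMSO was over 2 for 7, between 1 and 2 for 9, and under 1 for 5. On the luteolin arrays 9 of the 21 were not detected, 11 were detected on 1 array and 1 on both. With all probes summed, 6 of the 14 were not called, namely miR-3667-5p, miR-1469, miR-3617-5p, miR-4707-5p, miR-3945 and miR-378a-5p. The probe sums of miR-378a-5p, from the hairpin in the gene of the coactivator PGC-1β, were 1.74 and 2.51 in DMSO and 2.13 and 2.41 with gefitinib, so that its groups overlapped, although the total gave an adjusted p of 0.00708. The groups of miR-3945 overlapped as well (2.63 and 0.989 against 2.08 and 1.81). Over all 480 miRNAs, 55 were called with the summed probes and 45 were called both ways. Of the 13 called with the totals alone, 9 lacked detection on at least 1 of the 4 arrays.

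The other arms of miR-629 and miR-769 were measured as well. The signal of miR-629-5p was 0.838 and 1.02 in DMSO and 0.518 and 1.01 with gefitinib (log2 -0.24, adjusted p = 0.711). While the probe sums of miR-769-3p rose from 0.787 and 0.887 to 3.09 and 2.89, the signals of miR-769-5p were 3.90 and 2.32 against 1.41 and 1.63 (log2 -0.99, adjusted p = 0.148; with all probes summed -0.61, adjusted p = 0.0433). Their hairpins lie within the span of TLE3 on the minus strand (miR-629, chr15:70079372-70079468) and on the plus strand of chromosome 19 (miR-769, chr19:46018932-46019049). Neither was among the 43 hairpins tested for their arm ratio, since the raised arm was not detected in DMSO.
Of the 5 miRNAs no longer detected, let-7e-3p, miR-15a-3p and let-7f-2-3p are in the list of passenger arms. For let-7e-3p the probe sums were 2.07 and 2.30 against 0.809 and 0.263, a 3.11-fold fall (adjusted p = 0.00685 with the sums and 0.00213 with the totals). Probe sums of miR-3935 were 2.76 and 3.40 against 1.48 and 1.74, at least 1.03-fold lower, and the call on the totals (adjusted p = 0.00401) was lost with the summed probes (adjusted p = 0.106). The other miRNAs, miR-196b-3p, miR-15a-3p and let-7f-2-3p, were not called with the totals (adjusted p = 0.0768, 0.108 and 0.0798), and all 3 were called with the summed probes.

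**Figure D5:**
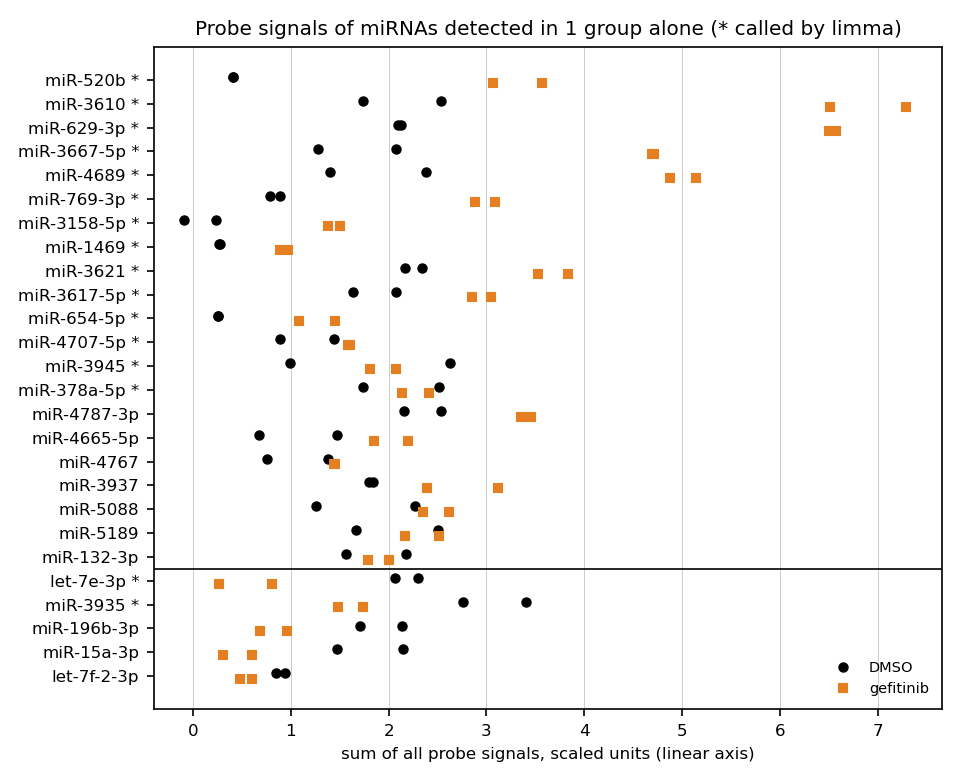
Sum of all probe signals on each array (horizontal linear axis, scaled units) for the 21 miRNAs detected on both gefitinib arrays and neither DMSO array (above the line) and the 5 detected on both DMSO arrays and neither gefitinib array (below it), with stars on those called by limma. DMSO is black and gefitinib orange, and the groups are far apart for miR-520b, miR-3610 and miR-629-3p but overlap for miR-378a-5p and miR-3945.

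To compare gefitinib directly with the other drug, the gefitinib arrays were compared with the luteolin arrays within the same fit, in which the DMSO arrays entered the filter, the scaling and the spread. Of 480 miRNAs, 24 (5%) were called, 22 higher (4.58%) and 2 lower (0.417%) in gefitinib-treated cells. This comparison shares the gefitinib arrays with that against DMSO. The signal of miR-188-5p was 12.3 and 7.23 with luteolin, and gefitinib was 1.91 higher on the log2 scale (adjusted p = 0.0185). The corresponding differences were 2.80 for miR-629-3p (adjusted p = 0.0175), 1.31 for miR-4746-3p (adjusted p = 0.00956) and 1.30 for miR-642a-3p (adjusted p = 0.0266). The strands miR-520b and miR-769-3p were detected on no luteolin array. The strand miR-4451 was lower in gefitinib than in either group, with 2.18 and 2.19 in DMSO, 2.26 and 2.17 with luteolin, and 1.23 and 1.35 with gefitinib (adjusted p = 0.0190 and 0.0266). Its fall against DMSO was not called with the summed probes (adjusted p = 0.0835). With the 4 arrays compared as the only arrays of the fit, limma called none and 75 miRNAs had an unadjusted p under 0.05. In the fit of all groups 1 miRNA was called without either gefitinib array and 48 without luteolin replicate 1.

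Of the 22 lowered strands, miR-4451 was the 1 called against luteolin, and the strands with large falls named next were not. The signal of miR-503-5p was 1.11 and 1.45 with luteolin, a difference between the drugs of 0.26 on the log2 scale (adjusted p = 0.591). For let-7a-3p it was 1.75 and 1.34 (difference -0.01, adjusted p = 1.00), and for miR-15b-3p 1.21 and 1.59 (difference -0.24, adjusted p = 0.759). These p-values do not show that the drugs act alike. None of the 10 lowered passenger arms was among the calls against luteolin. The median log2 change of the 32 tested passenger arms against DMSO was -0.53 with gefitinib, -0.65 with luteolin and -0.998 with both drugs, and these comparisons share the DMSO arrays. The rises of miR-4516 and miR-3960 against luteolin, 0.32 and 0.49, did not pass the test (adjusted p = 0.402 and 0.281).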

How the data were processed

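The authors labelled total RNA with Cy3 and hybridised it to 1-colour Agilent miRNA arrays, 8 arrays on 1 slide read in 1 scan, extracted with Agilent Feature Extraction 10.7.3.1 per the submitters' processing notes. The deposited scanner files hold linear signal intensity, background-subtracted and not normalized between arrays, with 30 spots per miRNA and no saturated spot (0 of 56610 per array). The number of arrays limits the precision. Spot by spot, the value table of the series matched these files within 0.5%.

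The total gene signal was scaled to the 75th percentile over 365 miRNAs detected on all 8 arrays, floored at 0.609 (from the lowest detected signals, by their median over the arrays) and log2 transformed. A miRNA was tested if both arrays of any group detected it, and these 480 were fitted in 4 groups with limma 3.58.1 in R 4.3.3 (lmFit, eBayes; 4 residual degrees of freedom, prior 1.66; two-sided; Benjamini-Hochberg). An undetected group gives a bound: the mean log2 signal of the other group minus the mean, per array, of the higher of the lowest detected signal and the miRNA's own probe sum. Scripts were tested on simulated data. Tables and figures used Python with pandas 2.3.3.

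Named were miR-630 and miR-5703 as reference, the 12 largest called rises and falls with detection on the 4 arrays and no overlap, up to 8 per direction among those detected in 1 group, both arms of hairpins with a called arm, called members of the lists or their largest change, and the 6 largest called against both DMSO and luteolin. Members and lists were chosen with earlier results of these data known, and lists are described by counts without a test. Sequences came from RefSeq (GRCh38.p14), matched by name for 395 of 480 tested miRNAs; genes around hairpins were taken without regard to strand. Alternatives changed scaling, summary of spots, background, filter, floor, arrays, test and replicate block; the sum of all probes was chosen after seeing the data.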

Additional observations from a re-analysis of the deposited data

How the results depend on the processing

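The 58 calls became 20 with the 75th percentile taken over the miRNAs detected on each array, 18 without a filter (1887 miRNAs tested), 36 among miRNAs detected on all 8 arrays (365 tested), 35 with detection by the flag well above background (323 tested), 14 with both gefitinib arrays counted as 1 sample, and 15 to 70 when 1 array was left out. The methods' t-test gave 118 miRNAs at its threshold, 46 of them over 2-fold, and 39 after Benjamini-Hochberg adjustment. The other settings gave 42 to 73 calls. The calls against luteolin, 24, became 12 among miRNAs detected on all 8 arrays, 0 with the 4 arrays compared alone (limma; 75 at an unadjusted p under 0.05), and 1 to 48 when 1 array was left out, with 1 without either gefitinib array and 48 without luteolin replicate 1. The hairpin called for its arm ratio became 0 with log2 of the signal plus 16 (limma; 5 unadjusted) and 5 with the 4 arrays alone, and left-out arrays gave 0 to 4. The 10 lower passenger arms became 5 without scaling, 5 with quantile normalization, 4 with the percentile per array, 4 with normexp, 3 without a filter, 4 among miRNAs detected on all 8 arrays, 2 with the flag well above background, 5 with the 4 arrays alone, 4 with both gefitinib arrays as 1 sample, 4 by the t-test after adjustment, and 4 to 10 when 1 array was left out. The newly detected miRNAs, 21, numbered 24 to 46 without 1 array, and the 5 no longer detected numbered 3 with the stricter flag and 6 to 19 without 1 array. Of the 58 calls, 13 held without each of the 8 arrays, and most of these rest on a group at the floor. The cause of these differences was not tested. The replicate difference of DMSO correlated with that of luteolin (r = 0.91) and of the combined treatment (r = 0.41) but not with that of gefitinib (r = -0.13), so the numbers were not taken as pairs in the comparison with DMSO. With the replicate block, 58 miRNAs were called against DMSO, 29 against luteolin, 6 hairpins and 11 passenger arms. With 2 arrays a group, low signals near the floor of 0.609 limit what can be told.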
